A study of Mus musculus with 30 samples.

Results

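Bone marrow-derived macrophages (BMDMs) of the Mertk-/-V1 line, which was made in E14TG2a embryonic stem cells of a strain other than C57BL/6, were compared over all genes with BMDMs of the other two Mertk knockout lines, Mertk-/-V2 and Mertk-/-V3. The comparison took 9 of the 30 RNA-seq libraries of the study, chosen by the genotype and the tissue in their labels, with 3 biological replicates of each line, and set the mean of the Mertk-/-V1 group against the mean of the other 2 group means. The 3 B6 WT BMDM libraries, which have wild-type Mertk, were fitted in the same model and served as a reference. BMDMs were bone marrow cells of age-matched adult mice grown for 7 days in medium conditioned by L929 cells, a source of the growth factor CSF1. The study also sequenced retinal pigment epithelium (RPE) at postnatal day 25 from the same 4 genotypes, with 6 libraries each of B6 WT and Mertk-/-V1 and 3 of each other line.

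All groups were labelled with the strain C57BL/6J. Mertk-/-V1 mice lack exon 17 of Mertk and were crossed repeatedly to C57BL/6J mice, and the genotyping in the study assigned a segment of chromosome 2 around Mertk to the strain of those stem cells. Mertk-/-V2 mice lack exon 18, which was removed from a floxed allele in the germline by a tamoxifen-induced Cre, and Mertk-/-V3 mice lack exons 3 and 4, which were deleted with CRISPR/Cas9. By the methods of the study both of these lines began in C57BL/6NJ embryos and keep part of that genome. A difference between Mertk-/-V1 and the other lines can therefore come with the stem cell-derived segment, with the C57BL/6J or C57BL/6NJ genome elsewhere, with the exons deleted or with the separate breeding of a line, and these cannot be told apart here. The lines and their libraries are called V1, V2 and V3 below, always as labelled.

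MERTK is a receptor tyrosine kinase of the TAM family (TYRO3, AXL and MERTK), which binds phosphatidylserine on apoptotic cells through the bridging ligands GAS6 and PROS1 and lets macrophages and RPE cells engulf them. A knockout made in stem cells of another strain carries neighbouring genes of that strain along, here on chromosome 2, where Tyro3 also lies, and backcrossing removes them slowly. Such passenger genes can differ in expression from their C57BL/6J counterparts independently of the targeted gene.

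The values are normalized counts: the reads of a gene in a library divided by the DESeq2 size factor of that library. The 9 knockout libraries held 16629659 to 25653814 reads on genes, and 1 read was worth 0.803 to 1.21 normalized counts. The macrophage genes Adgre1 (13100.2 to 17948 normalized counts over the 12 libraries), Csf1r (27215 to 33351), Cd68 (36286 to 41448) and Itgam (3424 to 4320) were high in every library. None of the 11 tested markers of 8 other cell types had an adjusted p under 0.05 in limma (1 had an unadjusted p under 0.05, and 0 were called by edgeR or DESeq2), and the summed neutrophil markers were 1084 to 1152 in V1, 1063 to 1256 in V2 and 1074 to 1234 in V3. Erythroid, stromal and mast cell and basophil markers summed to at most 12.1. In such bulk cultures, fewer cells of a type and less RNA per cell cannot be told apart.

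Mertk itself (ENSMUSG00000014361, chr2:128698956-128802894, GRCm38) was counted at 847, 883 and 865 in the V1 libraries, 3589, 3532 and 3579 in the V2 libraries, 651, 685 and 723 in the V3 libraries and 2414, 2649 and 2881 in B6 WT. The V1 and V3 libraries lay below all B6 WT libraries and the V2 libraries above them, with log2 fold changes against B6 WT of -1.61, -1.94 and 0.43 (adjusted p = 3.27e-09, 2.54e-10 and 0.00129, limma). The gene value pools all exons, so the loss of exon 18 alone cannot be read from it and the label of V2 is not checked by it. Against the mean of V2 and V3 the V1 value was lower (log2 fold change -0.85 with an SE of 0.05, adjusted p = 3.76e-07), but this average stands between a line above and a line below V1.

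Over all genes the V1 BMDMs differed from the average of the V2 and V3 BMDMs in a small number of genes. The 13420 genes tested averaged 10 or more normalized counts over the 12 libraries. Of these, 26 (0.194%) were differentially expressed genes (DEGs), which here means an adjusted p under 0.05 in limma with a 2.38-fold or larger change up or down, the threshold of the study. V1 was higher in 18 of them (0.134%) and lower in 8 (0.0596%). Without the threshold on the fold change, 133 genes (0.991%) had an adjusted p under 0.05, of which 89 (0.663%) were higher and 44 (0.328%) lower in V1. This second count depended on single libraries, being 74 without V1 replicate 3, 84 without V1 replicate 2 and 266 without V2 replicate 3, whereas that of the DEGs stayed between 22 and 31 in the fits that left out 1 library. Just inside the threshold on the fold change on the log2 scale were Fos (-1.25), Dusp1 (-1.32) and Gatm (1.39), and just outside it were Egr1 (-1.24), Mmp12 (1.24) and Gm49980 (-1.22).

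Chromosome 2 carried 11 of the 26 DEGs, 8 higher and 3 lower in V1, and 48 of the 133 genes with an adjusted p under 0.05, 32 higher and 16 lower. These 48 were 4.62% of the 1038 genes tested on that chromosome, against 85 of 12382 genes (0.686%) on the others. They were crowded around Mertk. In the 10 Mb before the start of Mertk, 26 of 111 tested genes (23.4%) passed the adjusted p and 6 were DEGs. In the 10 Mb after it, 9 of 74 (12.2%) passed and 2 were DEGs, and in the next 10 Mb on either side 4 of 33 (12.1%, 3 DEGs) and 3 of 32 (9.38%, 0 DEGs) passed. Farther than 20 Mb after Mertk, limma called 0 of 279 genes, of which 30 (10.8%) had an unadjusted p under 0.05, 0 were called by edgeR and 2 by DESeq2. On the other side, 2 of 35 genes from 30 to 20 Mb before Mertk passed (5.71%), none of them a DEG. From 130 to 30 Mb before it 4 of 474 passed, none of them a DEG, which is near the share over all genes tested (0.991%). In that part 53 genes (11.2%) had an unadjusted p under 0.05, compared with 11.8% of all genes tested. Between Thbs1 (start at -10.6 Mb) and Plcb1 (end at 6.78 Mb), the outermost DEGs apart from Lgr4 and so bounds set after their values were seen, 38 of 186 genes (20.4%) passed and the median absolute log2 fold change was 0.143, compared with 0.0726 over the 852 other genes of the chromosome and 0.0774 over the other chromosomes.

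**Figure D1:**
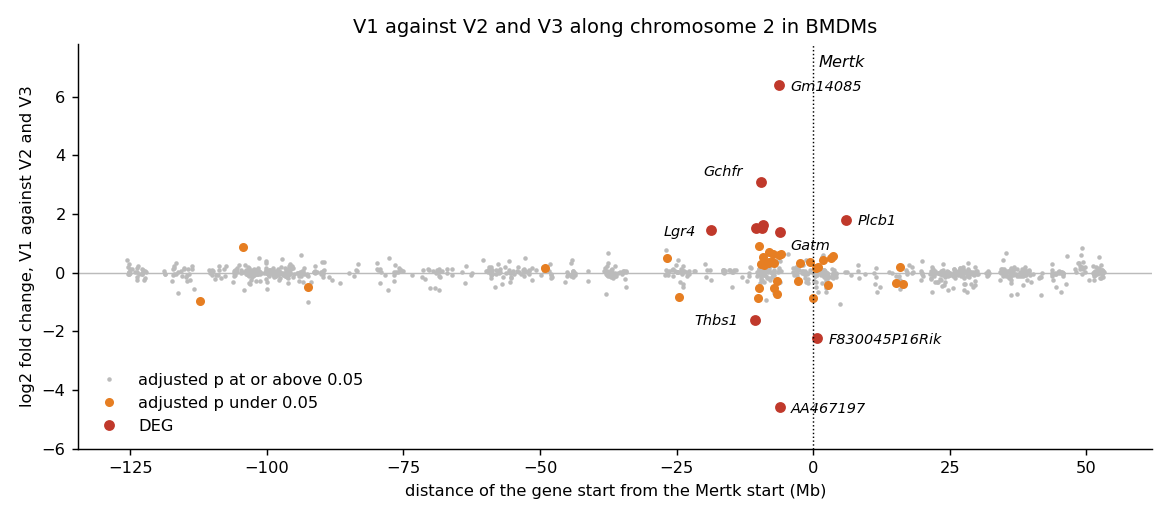
Log2 fold change of V1 against the mean of V2 and V3 in BMDMs (y axis) for the 1038 genes tested on chromosome 2, by the distance of the gene start from the start of Mertk in Mb (x axis). Grey points have an adjusted p at or above 0.05, orange points under 0.05, and red points are the 11 DEGs, 10 of which lie between Thbs1 and Plcb1 and 1 (Lgr4) at -18.8 Mb.

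The 11 chromosome 2 DEGs separated V1 from every other BMDM library. In 11 of 11 the 3 V1 values lay beyond all 6 values of V2 and V3, and beyond the 3 of B6 WT as well. Over all genes tested the first was true of 580 (4.32%) and the second of 368 (2.74%), and the non-overlap and the DEG calls rest on the same values. All 11 had an adjusted p under 0.05 against V3 alone (3.05% of all genes tested), 8 against V2 alone (0.365%) and 10 against B6 WT (7.07%). Rhov, Plcb1 and Lgr4 did not pass against V2, and Lgr4 did not pass against B6 WT (adjusted p = 0.0891 and 0.0539 for Lgr4, limma). These comparisons share the V1 libraries, and the 11 were chosen on the same V1, V2 and V3 values, so the counts against V2 and V3 are a description. Only Thbs1 among the 11 also differed between V2 and V3 (log2 difference -0.55, adjusted p = 0.0291, limma).

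Of the 8 chromosome 2 DEGs that were higher in V1, 3 belong to small-molecule metabolism and transport. Gatm (chr2:122594467-122611303), glycine amidinotransferase, the enzyme of the first step of creatine synthesis, was at 7510.2, 6983 and 7202 normalized counts in V1, 2931, 2829 and 2182 in V2, 2799.6, 2991 and 2929 in V3 and 2769, 2794 and 3099.6 in B6 WT. The 3 V1 libraries stood far above the 9 others, which overlapped each other, with a 2.60-fold difference between V1 and the average of V2 and V3 (log2 fold change 1.39 with an SE of 0.08, adjusted p = 1.94e-07, limma). Gchfr (chr2:119167773-119172390), which encodes the protein that binds GTP cyclohydrolase I and mediates its feedback inhibition in tetrahydrobiopterin synthesis, was at 134, 122 and 117 in V1, 16.98, 26.2 and 8.55 in V2, 9.83, 12.8 and 12.9 in V3 and 14.8, 15.5 and 11.7 in B6 WT. Its V1 values did not come near the others, which reached at most 26.2, and the average difference was 8.55-fold (log2 fold change 3.10 with an SE of 0.28, adjusted p = 2.05e-05). Gchfr was the 1 gene of 7 tested that passed in tetrahydrobiopterin synthesis and Gatm the 1 of 4 in creatine synthesis and use.

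Gm14085 (chr2:122484941-122528040), named Slc28a2b in RefSeq and a relative of the concentrative nucleoside transporter Slc28a2, was close to silent outside V1. It had 171, 156 and 151 normalized counts in V1 (146, 156 and 134 reads), 1.21, 2.02 and 0.950 in V2, 0, 1.07 and 0.803 in V3 and 0, 0.815 and 3.91 in B6 WT. The 6 libraries of V2 and V3 held 6 reads in all against 436 in V1, a 158-fold ratio with a 95% counting interval of 72.1 to 433, and the fitted difference depended on the pseudocount (log2 fold change 6.39 with an SE of 0.47, adjusted p = 3.37e-06). The neighbouring Slc28a2, whose transcript matches that of Gm14085 at 98.85% over 347 nt, also rose, from 491 to 705 in V2 and V3 to 851, 906 and 865 in V1 (log2 fold change 0.60 with an SE of 0.09, adjusted p = 0.00181). Since reads can be split between such copies, the sum of both was taken. It was 1.78-fold higher in V1 than in V2 and V3 (exact two-sided permutation p = 0.0119 over 84 assignments, the smallest p they allow, and 0.0238 after adjustment over 6 such tests). Each gene already separated V1 from the 6 libraries of V2 and V3, so the sum had to as well. This p was therefore fixed in advance and adds no support.

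Receptors and signal transducers made up another 4 of the increases. Gpr176 (chr2:118277110-118373419), an orphan G protein-coupled receptor, was at 473, 517 and 601 in V1, 155, 163 and 158 in V2, 191, 211 and 231 in V3 and 159, 161 and 196 in B6 WT. The highest of the 9 other libraries, V3 replicate 3, was well below the lowest V1 library (log2 fold change 1.52 with an SE of 0.10, adjusted p = 7.39e-07). Rhov (chr2:119269201-119271272) had 105, 115 and 106 in V1, 43.7, 37.3 and 55.1 in V2, 19.7, 30.9 and 49.01 in V3 and 28.8, 31.8 and 36.1 in B6 WT (log2 fold change 1.51 with an SE of 0.23, adjusted p = 0.00385). The V1 values were again the 3 highest of 12, while V2 and V3 ranged from 19.7 to 55.1. Against V2 alone Rhov did not pass, like Plcb1 and Lgr4 below.

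Plcb1 (chr2:134786067-135475258), a phospholipase C of the beta class, which cleaves phosphatidylinositol 4,5-bisphosphate downstream of G protein-coupled receptors, was at 52.8, 42.99 and 56.2 in V1, 14.6, 20.2 and 11.4 in V2 and 14.2, 11.7 and 11.2 in V3 (log2 fold change 1.82 with an SE of 0.32, adjusted p = 0.01). Its paralog Plcb2, at -9.991 Mb from Mertk, was likewise highest in V1, at 1656, 1648 and 1513 against 789.9 to 949.8 in V2 and V3 (log2 fold change 0.91 with an SE of 0.07, adjusted p = 4.3e-06), without passing the threshold on the fold change. Lgr4 (chr2:109917647-110014257), the R-spondin receptor that strengthens Wnt signalling, was at 61.1, 62.99 and 56.2 in V1, 32.8, 25.2 and 12.3 in V2 and 15.3, 26.7 and 22.5 in V3 (log2 fold change 1.45 with an SE of 0.27, adjusted p = 0.0149). Plcb1 lost the adjusted p without V1 replicate 1 (0.0701) or 3 (0.0883), with log2 fold changes of 1.78 and 1.74. Lgr4 lost it without V1 replicate 1 (0.0848), 2 (0.0942) or 3 (0.0775), with log2 fold changes of 1.44, 1.41 and 1.49. Exd1 (chr2:119516505-119547627), known for its role with Piwi-interacting RNAs in germ cells, was at 49.3, 35.99 and 50.6 in V1 and 10.4 to 18.2 in V2 and V3 (log2 fold change 1.64 with an SE of 0.28, adjusted p = 0.0084). It lost the adjusted p without V1 replicate 1 (0.0656) or 3 (0.0775), with log2 fold changes of 1.57 and 1.55, so that in the 3 genes the size of the difference changed little while 2 V1 libraries remained.

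**Figure D2:**
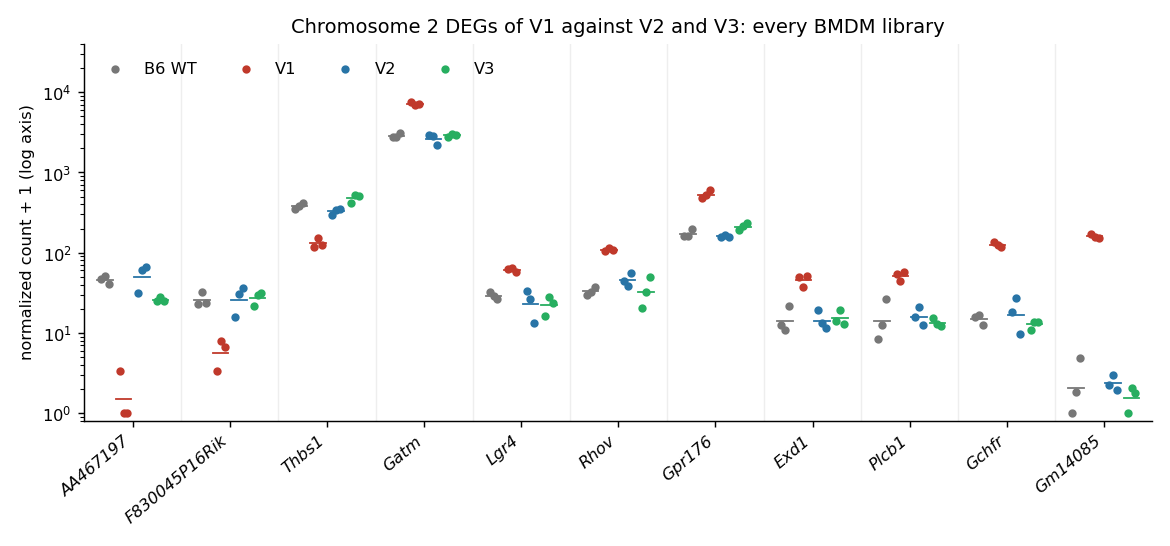
Normalized count plus 1 on a log axis (y axis) of the 11 chromosome 2 DEGs (x axis) in each of the 12 BMDM libraries. Points are libraries, coloured by genotype, and the short line is the mean of the log values of a group. The 3 V1 points stand apart from all 9 others in each gene, above them in 8 genes and below them in AA467197, F830045P16Rik and Thbs1.

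Of the 3 chromosome 2 DEGs lower in V1, AA467197 had the largest difference. AA467197 (chr2:122636986-122641191), also known as Nmes1 and the host gene of miR-147, was at 2.35, 0 and 0 normalized counts in V1, 30.3, 59.5 and 64.6 in V2, 24.03, 26.7 and 24.1 in V3 and 46.04, 49.7 and 40.1 in B6 WT. The V1 libraries held 2 reads in all, in V1 replicate 1, against 229 in V2 and V3, a ratio of 0.0190 with a 95% counting interval of 0.00229 to 0.0695 (log2 fold change -4.59 with an SE of 0.38, adjusted p = 7.87e-06, limma). A mature microRNA of the gene, mmu-miR-147-5p, is encoded within it at chr2:122640814-122640837 on the plus strand (RefSeq, GRCm38.p6) and is shown because it shares this transcript, with the seed (bases 2 to 8) in capitals. Small RNAs were not sequenced, so its level was not measured.
mmu-miR-147-5p: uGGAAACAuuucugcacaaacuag

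Thbs1 (chr2:118111876-118127133) encodes thrombospondin 1, a secreted matrix glycoprotein that binds CD36 and CD47 and can activate latent TGF-beta. It was at 115, 152 and 124 in V1, 294, 339.9 and 352 in V2, 415, 522 and 510.2 in V3 and 350.2, 381 and 420.1 in B6 WT (log2 fold change -1.61 with an SE of 0.11, adjusted p = 8.88e-07). Every V1 library was below every other, and the V2 libraries were below those of V3. It was the 1 member that fell among 24 tested genes of thrombospondin and TGF-beta signalling, and 0 were called higher (median log2 fold change 0.05, against 0.0008 over all genes tested). F830045P16Rik (chr2:129458359-129536602), 0.759 Mb after the Mertk start, was low everywhere and lowest in V1, at 2.35, 6.999 and 5.62 in V1, 14.6, 29.2 and 35.1 in V2 and 20.8, 28.8 and 30.5 in V3 (log2 fold change -2.24 with an SE of 0.33, adjusted p = 0.00279).

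Below the threshold on the fold change, the chromosome 2 genes with the next largest differences held 8 in which V1 was beyond all 6 libraries of V2 and V3 and 2, Mertk and Plxdc2, in which it was not. Besides Plcb2, the genes that rose within the stretch around Mertk were Haus2, a subunit of the augmin complex of the spindle (696, 663 and 648 in V1 and 323 to 478 in V2 and V3, log2 fold change 0.72), Ppip5k1, an inositol pyrophosphate kinase (621, 699 and 686 and 394 to 453, 0.64), and Bloc1s6, a subunit of the BLOC-1 complex of lysosome-related organelles (1372, 1359.7 and 1404 and 819.8 to 951, 0.63). Bmf, a pro-apoptotic BH3-only protein of the BCL2 family, was at 63.4, 48.99 and 46.1 in V1 and 80.7 to 118 in V2 and V3 (log2 fold change -0.88 with an SE of 0.14, adjusted p = 0.00574). Cd59a, an inhibitor of the terminal complement pathway, was at 234, 191 and 237 in V1, 250.1 to 511 in V2 and V3 and 217 to 334 in B6 WT (log2 fold change -0.84 with an SE of 0.15, adjusted p = 0.0098). Neither gene passed against V2 alone (adjusted p = 0.103 for Bmf and 0.307 for Cd59a, limma). V1 overlapped B6 WT in Cd59a and did not pass against it (adjusted p = 0.241). Il1rn, the interleukin 1 receptor antagonist, lies at -104 Mb, far from Mertk on the same chromosome, and was at 661, 909.8 and 984 in V1 against 387 to 553 in V2 and V3 (log2 fold change 0.88 with an SE of 0.12, adjusted p = 0.00131). Plxdc2, at -112 Mb, was at 25 to 28.2 in V1, 24.3 to 33.2 in V2 and 90.7 to 115 in V3, which puts V1 among the V2 values. The study names Plxdc2 among the chromosome 2 genes that set V1 apart in BMDMs and not in RPE. In the values used here V1 was apart from V3 but not from V2.

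On other chromosomes, 3 DEGs were near-identical copies of chromosome 2 genes, and their values are uncertain because a read can be assigned to either copy. Pcna-ps2 (chr19:9283380-9284160), a processed pseudogene of Pcna (the sliding clamp of DNA replication, chr2:132249162-132253314), was at 1528, 1673 and 1711 in V1, 296, 290.5 and 328 in V2, 370.3, 251 and 294 in V3 and 336, 319.5 and 229 in B6 WT (log2 fold change 2.43 with an SE of 0.13, adjusted p = 1.51e-07). Its 781-nt transcript differs from that of Pcna at 6 positions (99.23% identity), and the longest run without a difference is 246 nt. Pcna, which is named here after its values were seen, had 6931, 7595 and 8096 in V1, 8143, 8197 and 7920.3 in V2 and 8516, 8924 and 9075 in V3, and did not pass the adjusted p (log2 fold change -0.17, adjusted p = 0.126). The pair is shown over 90 nt (transcript positions 366 to 455 of Pcna and 87 to 176 of Pcna-ps2, GENCODE M21, C57BL/6J reference) to show how few bases separate the copies, with the 2 bases that differ in capitals.
Pcna: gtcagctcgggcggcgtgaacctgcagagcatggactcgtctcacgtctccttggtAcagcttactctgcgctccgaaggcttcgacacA
Pcna-ps2: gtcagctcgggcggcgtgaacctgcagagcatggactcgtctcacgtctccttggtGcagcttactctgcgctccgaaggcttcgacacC

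Added together, Pcna and Pcna-ps2 did not separate V1 from V2 and V3 (1.05-fold, exact two-sided permutation p = 0.298, adjusted over 6 tests 0.358), with sums of 8459 to 9807 in V1 and 8248 to 9369 in V2 and V3. Eif3j2 (chr18:43475418-43477796) matches Eif3j1 on chromosome 2, a subunit of translation initiation factor 3, at 99.41% over 2379 nt. Eif3j2 was at 308, 268 and 297 in V1 and 28.9 to 51.3 in V2 and V3 (log2 fold change 2.90 with an SE of 0.18, adjusted p = 4.4e-07), while Eif3j1 was at 388, 395 and 435 and 604 to 728 (log2 fold change -0.72 with an SE of 0.07, adjusted p = 3.79e-05). One copy rose and the other fell, and their sum was 0.985-fold (exact permutation p = 0.81, adjusted 0.81). Gm3650 (chr18:43472816-43475169) matches Spg11 on chromosome 2 at 99.87% over 747 nt and was at 88.1, 76.98 and 98.98 in V1 and 4.82 to 10.9 in V2 and V3 (log2 fold change 3.35 with an SE of 0.29, adjusted p = 1.48e-05). Spg11 was lower in V1 than in V2 and V3 by an amount larger than the gain of its copy (1169.7, 1248 and 1162 against 1368 to 1509, log2 fold change -0.26 with an SE of 0.05, adjusted p = 0.0123), so that the sum stayed lower (0.890-fold, exact permutation p = 0.0119, adjusted 0.0238). The sum was 1258 to 1325 in V1, 1376 to 1516 in V2 and V3 and 1236 to 1379 in B6 WT, so that V1 overlapped B6 WT. Whether reads from stem cell-derived alleles of the chromosome 2 genes were assigned to these copies was not tested, since the deposited values hold no alignments.

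**Figure D3:**
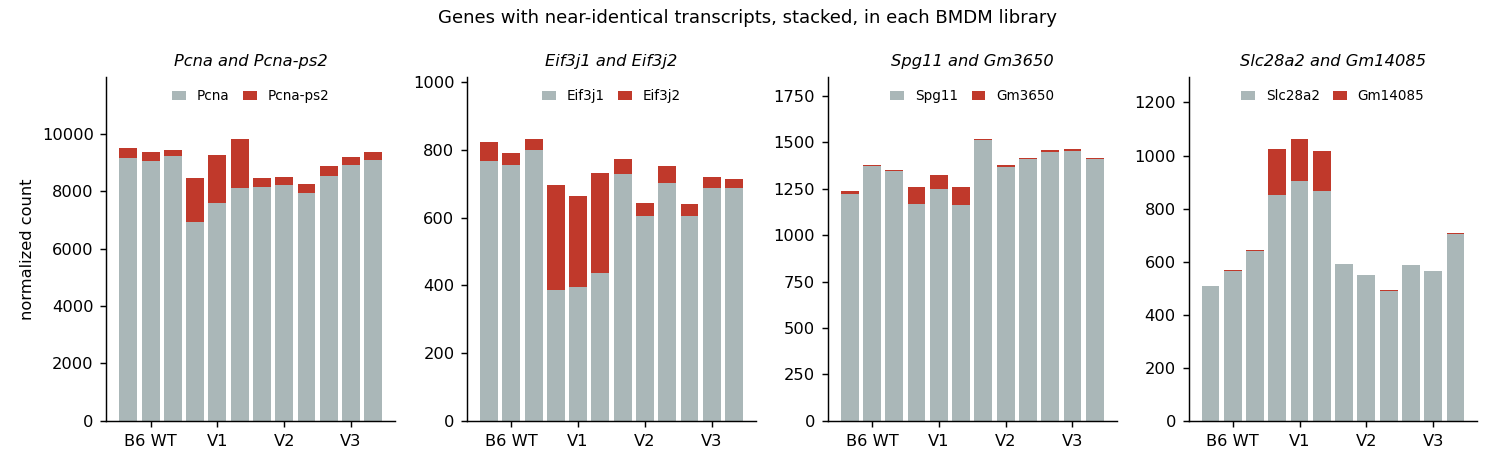
Normalized counts (y axis, from 0) of genes with near-identical transcripts, stacked in each of the 12 BMDM libraries, which are grouped by genotype along the x axis. In the 3 V1 bars of Pcna with Pcna-ps2 and of Eif3j1 with Eif3j2 the red part of the copy on another chromosome is larger than in the other 9, while the height of the whole bar overlaps that of V2 and V3.

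Outside chromosome 2 and apart from such copies, Gdf3 (chr6:122605403-122610087) was the DEG with the smallest adjusted p. It encodes a secreted ligand of the TGF-beta family that macrophages express. It was at 835, 908 and 1035 in V1, 235, 224 and 258 in V2, 129.98, 104 and 150.2 in V3 and 443, 431 and 439.6 in B6 WT. The V1 libraries were the highest of 12, those of V2 and V3 the lowest and those of B6 WT between them, with V1 5.04-fold above the average of V2 and V3 (log2 fold change 2.40 with an SE of 0.10, adjusted p = 2.31e-08) and also above B6 WT (log2 fold change 1.07, adjusted p = 0.00016). V2 was in turn above V3 (log2 fold change 0.91, adjusted p = 0.00098).

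Called against V2 and against V3 separately, with the same sign, were 37 genes (0.276%), of which 24 were on chromosome 2 and 13 elsewhere. The 13 held Gdf3, the copies Eif3j2, Gm3650 and Pcna-ps2, and 2 transcripts of the end of the X chromosome described below. The others had smaller differences. Clec4e, the receptor Mincle (log2 fold change 0.60 against V2 and 1.04 against V3), Tnip3, a partner of the ubiquitin-editing enzyme TNFAIP3 (0.92 and 0.96), Itgb3, the integrin beta 3 subunit (0.47 and 0.77), and Ide, the insulin-degrading enzyme (0.41 and 0.68), were higher. Klf2, a Kruppel-like transcription factor (-0.59 and -1.04), Egr1, a zinc finger transcription factor (-1.33 and -1.15), and the chemokine receptor gene Ccr1 (-0.38 and -0.22) were lower. Clec4e, Tnip3, Ide, Klf2 and Ccr1 were picked from this list after their values were seen. Mmp12, the macrophage elastase, was at 1371, 2139 and 2169 in V1, 896, 504 and 1316 in V2, 623, 903 and 691 in V3 and 695, 939 and 621 in B6 WT (log2 fold change 1.24 with an SE of 0.24, adjusted p = 0.0218). Its V1 libraries were the 3 highest, by a narrow margin over V2 replicate 3, and against V2 alone it did not pass (adjusted p = 0.154). Pear1, a platelet endothelial aggregation receptor, was below all 9 others in V1, at 16.4, 19 and 16.9 against 31.98 to 40.98 in V2 and V3 (log2 fold change -1.01 with an SE of 0.18, adjusted p = 0.0098).

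**Figure D4:**
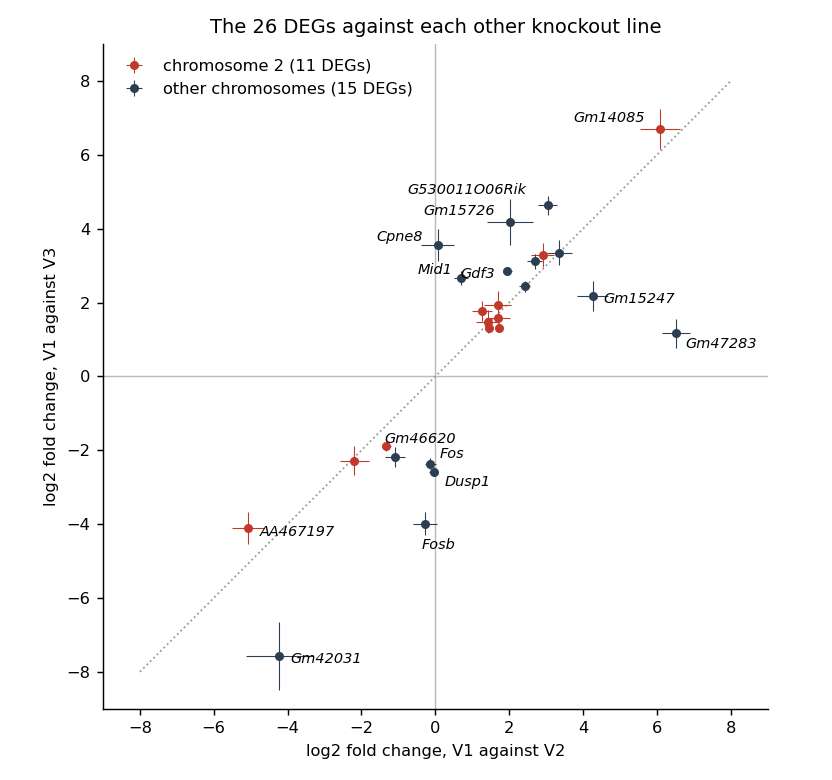
Log2 fold change of V1 against V2 (x axis) and of V1 against V3 (y axis) in BMDMs for the DEGs of V1 against the mean of both, with bars of 1 SE and a dotted line where both are equal. Both axes use the same V1 libraries. Chromosome 2 genes lie near the dotted line, whereas several genes of other chromosomes, such as Fosb (-0.28 and -3.99) and Gm47283 (6.52 and 1.16), lie far from it.

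Another kind of DEG outside chromosome 2 had V1 values that were not called against B6 WT, with V2, V3 or both apart from them. Of the 15 DEGs on other chromosomes, 11 had V1 beyond all 6 libraries of V2 and V3 but 5 had it beyond all 9 others, 10 differed between V2 and V3, and 6 passed the adjusted p against V2 and against V3. Of the genes not called against B6 WT, 5 are annotated at the ends of the X and Y chromosomes, near where the sex chromosomes pair. They were Mid1 and G530011O06Rik, Gm15726 and Gm15247, which lie on the opposite strand within Mid1, on X, and Gm47283 on Y. Mid1 (chrX:169685199-170005736), a microtubule-associated ubiquitin ligase, was at 204, 187 and 189 in V1, 132, 113 and 111 in V2, 22.9, 26.7 and 42.6 in V3 and 157, 153 and 175 in B6 WT (log2 fold change 1.68 with an SE of 0.16, adjusted p = 3.78e-05). V3 was lowest and V2 lay between V3 and B6 WT. V2 did not pass against V1 (adjusted p = 0.206) or against B6 WT (0.185).

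G530011O06Rik (chrX:169975043-169978917) was at 315, 215 and 318 in V1, 33.97, 33.3 and 31.3 in V2, 7.65, 9.59 and 14.5 in V3 and 248, 174 and 330.2 in B6 WT (log2 fold change 3.84 with an SE of 0.22, adjusted p = 2.4e-07), low in both other knockouts and not in B6 WT. Part of its transcript matches Mid1 and 2 genes on Y at 100%. Gm47283 (chrY:90784738-90816464) was at 341, 272 and 351 in V1, 1.21, 3.03 and 3.80 in V2, 142, 75.7 and 265 in V3 and 279.5, 202 and 370.2 in B6 WT, so that V2 was near 0 and V1 and V3 each overlapped B6 WT. V3 did not pass against V1 (adjusted p = 0.118) or against B6 WT (0.245). Its transcript matches Gm21887 on X at 100% over 529 nt, and both genes, summed, were 3.81-fold higher in V1 (exact permutation p = 0.0238, adjusted 0.0357). The sum was 294 to 651 in V1, 29.2 to 59.4 in V2, 166 to 281 in V3 and 320 to 480 in B6 WT, so that V1 overlapped B6 WT. Gm47283 was chosen as a DEG on the same libraries, so this p adds no support. Xist was at 2822 to 5686 in all 12 libraries and 4 other Y-linked genes summed to at most 1.21, the pattern of female cells. Gm47283 is therefore called a Y gene by its annotation only, and its reads cannot be taken as reads from Y. Which matching place they came from was not tested. Gm15247 (21 to 24.7 in V1, 0 to 6.43 in V2 and V3 and 24.5 to 28.3 in B6 WT, log2 fold change 3.22 with an SE of 0.36, adjusted p = 0.000215) and Gm15726 (28.2 to 41.6, 0 to 13.3 and 22.2 to 36.1, log2 fold change 3.10 with an SE of 0.54, adjusted p = 0.00897) were likewise not called against B6 WT in V1. V2 was lowest in Gm15247 (0 to 0.950 against 2.13 to 6.43 in V3, adjusted p = 0.0165 in limma), whereas V3 was lowest in Gm15726 (0 to 5.62 against 4.85 to 13.3 in V2), where V2 and V3 did not pass against each other (adjusted p = 0.0771). Gm15726 lost the adjusted p without V1 replicate 2 (0.0516) or 3 (0.0820). Whether the counting used the strand is not given in the sources used here, and without it reads from these antisense transcripts and from Mid1 cannot be told apart.

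A pair of long non-coding RNAs showed the reverse, being high in V3, variable in V2 and low in V1 and B6 WT. Gm42031 (chr8:85125872-85132289) was at 1.17, 4.999 and 3.37 in V1, 195, 7.06 and 234 in V2, 616, 836 and 756 in V3 and 1.64, 0.815 and 1.95 in B6 WT (log2 fold change -5.90 with an SE of 0.79, adjusted p = 0.00109), and V2 replicate 2 lay next to V1, far from the other V2 libraries. Gm46620 (chr18:82694287-82701336) was at 63.4, 57.99 and 61.9 in V1, 186, 78.7 and 154 in V2, 289, 252 and 304 in V3 and 63.3, 58.7 and 101 in B6 WT (log2 fold change -1.64 with an SE of 0.23, adjusted p = 0.00154). V2 replicate 2 was again the V2 library nearest to V1, and neither RNA passed the adjusted p against V2 (0.0845 and 0.148). Both have near-identical transcripts elsewhere in the genome, which makes their values uncertain. Dynlt1b, a dynein light chain gene with 4 such copies, had the same order at a smaller size (102 to 141 in V1, 175 to 237 in V2, 334 to 429.6 in V3 and 129.1 to 142 in B6 WT, log2 fold change -1.15 with an SE of 0.13, adjusted p = 0.000188).

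The remaining DEGs had V1 values among those of V2 and apart from V3. Cpne8, a copine that binds membranes in a calcium-dependent way, was at 22.3, 21 and 21.4 in V1, 24.3, 21.2 and 17.1 in V2, 0, 1.07 and 2.41 in V3 and 1.64, 2.45 and 2.93 in B6 WT (log2 fold change 1.81 with an SE of 0.38, adjusted p = 0.0376), with V3 and B6 WT at 3 reads or fewer. Its call ended in each fit that left out a V1 or V2 library, with adjusted p values of 0.0518 to 0.196 in limma. Below the threshold on the fold change, Bmpr1a, a receptor for bone morphogenetic proteins, had 56.99 to 78.7 in V1, 47.4 to 69.1 in V2, 14.2 to 16.9 in V3 and 15.6 to 30.2 in B6 WT (log2 fold change 1.21 with an SE of 0.23, adjusted p = 0.0155). Wdfy1, 1 of 2 tested genes on a list of those known to differ between C57BL/6J and C57BL/6NJ, was at 244 to 269.9 in V1 and 199.7 to 263 in V2 but 1146 to 1239.8 in V3 (log2 fold change -1.05 with an SE of 0.09, adjusted p = 7.87e-06), and Lrmda, which did not differ between V1 and B6 WT by the test (adjusted p = 0.491), was low in V3 alone (15.99 to 27.3, against 131 to 147 in V1, 152 to 176 in V2 and 147 to 174 in B6 WT).

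Immediate early genes, which cells transcribe within minutes of a stimulus without new protein synthesis, included several with this order of the lines. Of 17 tested, 8 were lower in V1 than the average of V2 and V3 (0.328% of all genes tested) and 0 were higher (0.663%), with a median log2 fold change of -0.19 against 0.0008 over all genes tested (limma). Fos and Fosb, subunits of the transcription factor AP-1, and Dusp1, a phosphatase that inactivates MAP kinases, were DEGs. The level of Fos was 389, 489.9 and 471 in V1, 520.4, 476 and 483 in V2, 3025, 2235 and 1829 in V3 and 3038, 2377 and 2793 in B6 WT (log2 fold change -1.25 with an SE of 0.13, adjusted p = 6.34e-05). V1 and V2 overlapped, and V3 overlapped B6 WT at a level several-fold above them. Dusp1 had 257, 264 and 291 in V1, 313, 249 and 281 in V2, 1965, 1650.2 and 1332 in V3 and 2322, 1995 and 2099 in B6 WT (log2 fold change -1.32 with an SE of 0.10, adjusted p = 5.67e-06), and Fosb 41.1, 34.99 and 25.9 in V1, 35.2, 32.3 and 59.8 in V2, 940.5, 499.97 and 345 in V3 and 567, 512 and 768 in B6 WT (log2 fold change -2.14 with an SE of 0.28, adjusted p = 0.000838). In all 3 genes the low libraries were the 6 of V1 and V2.

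Against V2 alone the log2 fold changes were -0.14 for Fos, -0.05 for Dusp1 and -0.28 for Fosb (adjusted p = 0.844, 0.947 and 0.855), and against V3 alone -2.37, -2.59 and -3.99 (adjusted p = 4.32e-07, 1.76e-08 and 5.76e-06). When V2 and V3 were fitted as 1 group, so that their difference counted as spread, the 3 genes lost the adjusted p (0.50, 0.525 and 0.50). Of the 17 genes, 1 was lower against V2 (0.104% of all genes tested) and 8 against V3 (1.19%), where 2 were higher (1.86%). Zfp36, which speeds the decay of AU-rich mRNAs (1762 to 2155 in V1, 2009 to 2285 in V2 and 2986 to 3679.9 in V3), and Jun (3669 to 3994, 3555 to 3995 and 4903 to 5135) followed the same order as Fos. The count of 8 became 4 without V1 replicate 1 or V1 replicate 3.

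The gene of this list that was lower in V1 than in each other knockout alone was Egr1 (chr18:34859823-34864984). It was at 166, 324 and 242 in V1, 478, 697 and 621 in V2, 683, 528 and 400.1 in V3 and 455, 262 and 339.95 in B6 WT (log2 fold change -1.24 with an SE of 0.22, adjusted p = 0.0098). All V1 libraries were below the 6 of V2 and V3 but overlapped B6 WT. Ier2 (654, 757 and 627 in V1 and 786 to 1109 in the other 9 libraries, log2 fold change -0.48 with an SE of 0.09, adjusted p = 0.0179) and Ier3 (378, 345 and 332 and 414 to 536, log2 fold change -0.47 with an SE of 0.08, adjusted p = 0.00954) had V1 below all 9.

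**Figure D5:**
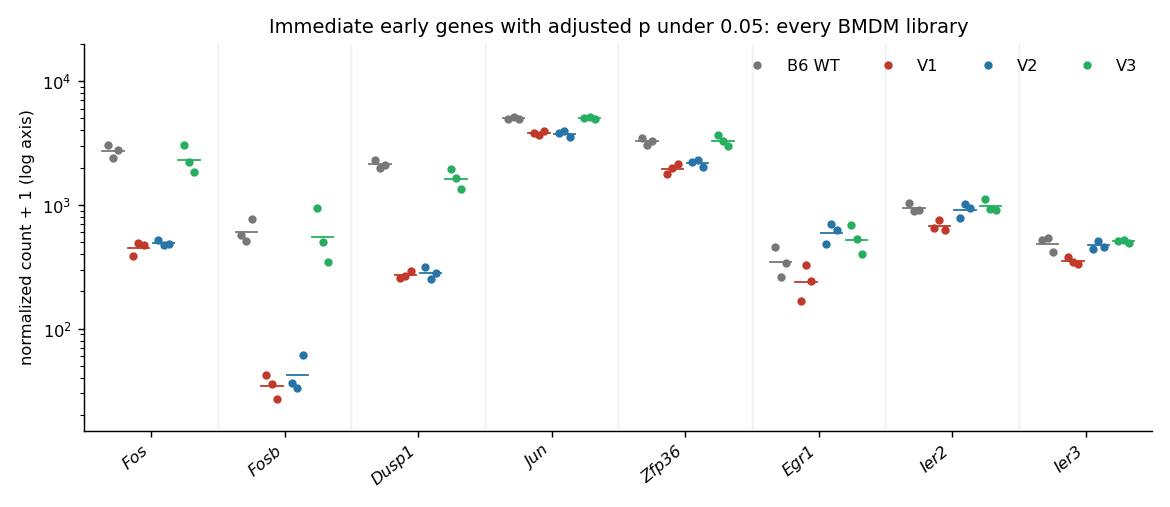
Normalized count plus 1 on a log axis (y axis) of the 8 immediate early genes with an adjusted p under 0.05 (x axis) in each BMDM library. Points are libraries, coloured by genotype, and the short line is the mean of the log values of a group. Fos, Fosb and Dusp1 are low in V1 and V2 and high in V3 and B6 WT, whereas Ier2 and Ier3 are lowest in V1 alone.

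The promoters of the 3 DEGs of this list are given as the 250 bases before the RefSeq start of the gene (GRCm38.p6), at chr12:85473640-85473889 on the plus strand, chr7:19310046-19310295 on the minus strand and chr17:26508473-26508722 on the minus strand, because these genes moved together. Capitals mark TGACG, the core of the cAMP response element, on either strand, and its palindrome TGACGTCA, which contains TGACG on both strands. TGACG was found from -129 to -125 and from -66 to -62 in Fos, from -60 to -56 in Fosb, and from -191 to -187 in Dusp1, where TGACGTCA lay from -143 to -136. Of 32851 promoter windows of the same length, 17.8% held TGACG and 1.55% held TGACGTCA. A match describes these letters in the reference sequence and no binding was measured.
Fos promoter: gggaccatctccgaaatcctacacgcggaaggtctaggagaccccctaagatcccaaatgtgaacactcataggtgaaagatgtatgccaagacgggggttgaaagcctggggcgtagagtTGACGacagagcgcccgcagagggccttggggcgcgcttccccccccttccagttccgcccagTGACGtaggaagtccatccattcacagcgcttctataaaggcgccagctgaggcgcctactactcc
Fosb promoter: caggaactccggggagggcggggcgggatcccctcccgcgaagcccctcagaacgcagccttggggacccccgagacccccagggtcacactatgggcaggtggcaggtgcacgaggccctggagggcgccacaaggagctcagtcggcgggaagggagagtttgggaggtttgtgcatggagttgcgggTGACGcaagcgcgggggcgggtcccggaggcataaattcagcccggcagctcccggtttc
Dusp1 promoter: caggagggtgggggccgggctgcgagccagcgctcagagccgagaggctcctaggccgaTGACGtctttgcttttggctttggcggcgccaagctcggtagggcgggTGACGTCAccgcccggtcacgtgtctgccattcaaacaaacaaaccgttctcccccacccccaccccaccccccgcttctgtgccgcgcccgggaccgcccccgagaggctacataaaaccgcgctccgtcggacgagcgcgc

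Compared with each knockout alone, V1 BMDMs had 18 DEGs against V2 (0.134%) among 49 genes with an adjusted p under 0.05 (0.365%), and 50 DEGs against V3 (0.373%) among 409 (3.05%). V2 and V3, the lines without the stem cell-derived segment, had 33 DEGs between them (0.246%) among 424 genes (3.16%). The 3 counts share libraries in pairs and are not independent. DEGs of the same sign against both V2 and V3 were 14 (0.104%).

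Among the TAM receptors, Tyro3 was too low in BMDMs for the filter, so it was tested by itself. It was at 16.4, 18 and 14.6 in V1, 6.07, 4.03 and 5.70 in V2, 9.83, 7.46 and 8.03 in V3 and 4.93, 6.52 and 6.84 in B6 WT. The 3 V1 libraries were the highest of 12, 2.39-fold above the average of V2 and V3 (exact two-sided permutation p = 0.0119 over 84 assignments, the smallest they allow, and 0.0238 adjusted over 6 tests). The 6 tests include the sum of Slc28a2 and Gm14085, whose p was fixed in advance, which can lower this adjusted value. The permutation also takes V2 and V3 as 1 group, although their Tyro3 values did not overlap. Axl was at 159, 157 and 132 in V1, 166, 144 and 285 in V2 and 102, 92.7 and 156 in V3 and did not pass (log2 fold change 0.02, SE 0.21, adjusted p = 0.985). Of the 5 tested TAM receptors and ligands, Mertk alone passed.

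Of 28 tested genes of apoptotic cell uptake, 3 were higher in V1 and 0 lower (0.663% and 0.328% of all genes tested), with a median log2 fold change of 0.05. They were Itgb3, which with the alpha V subunit binds MFGE8 on apoptotic cells (611, 622 and 577 in V1 and 319.8 to 479 in V2 and V3, log2 fold change 0.62 with an SE of 0.07, adjusted p = 0.000322), Cd300a, an inhibitory receptor for phosphatidylserine (1526, 1614 and 1535 and 1095 to 1425, log2 fold change 0.32 with an SE of 0.04, adjusted p = 0.00148), and Sirpa, the inhibitory receptor for CD47, which lies 0.894 Mb after the Mertk start (63117, 62899 and 63089.8 and 53396 to 55970.4, log2 fold change 0.19 with an SE of 0.04, adjusted p = 0.0411). In each of them the V1 libraries were above all 9 others. Of the 28 genes, 1 was called higher against V2 alone, Itgb3 (0.261% of all genes tested), and 3 against V3 alone (1.86%). Cd300a did not pass against V2 (log2 fold change 0.19, adjusted p = 0.224, limma). Of 16 tested inflammatory cytokines and chemokines, 3 were higher and 0 lower (0.663% and 0.328% of all genes tested), with a median of 0.10. They were Il1rn, given above, and the monocyte chemoattractants Ccl2 (log2 fold change 0.22, adjusted p = 0.0161) and Ccl7 (0.28, adjusted p = 0.0112). Ccl2 was at 10060.2 to 11044 in V1, 10218 to 11182 in V2 and 7564 to 7755 in V3, so that V1 overlapped V2. Ccl7 was at 5546 to 6411 in V1, 6072 to 6932 in V2 and 3795 to 3861 in V3, and V1 likewise overlapped V2 (log2 fold change -0.11 against V2, adjusted p = 0.687).

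In 14 of the 22 lists, with 250 tested genes in all, limma called 0 genes at an adjusted p under 0.05. They covered macrophage identity, the type I interferon response, alternative activation, MHC class I and class II presentation, co-stimulation, cGAS-STING, sterol synthesis, LXR targets, the lysosome, glycolysis, the integrated stress response, NRF2 targets and the cell cycle. Of these genes 24 (9.60%) had an unadjusted p under 0.05, compared with 11.8% of all genes tested, 0 were called by edgeR and 4 by DESeq2. The list medians ranged from -0.20 (10 genes of MHC class II presentation) to 0.15 (22 genes of sterol synthesis). In the integrated stress response, 6 of 15 genes (40%) had an unadjusted p under 0.05, all lower in V1, with 1 called lower against V2 alone, where 0.104% of all genes tested were (Slc7a5, an amino acid transporter subunit named after its values were seen, log2 fold change -0.47). In the type I interferon list, 0 of 45 genes had an unadjusted p under 0.05, with log2 fold changes from -0.35 to 0.46, and 0 were called by edgeR or DESeq2.

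The RPE libraries, which are separate samples, allowed the same contrast in a second tissue. There 18 of 18832 tested genes were DEGs of V1 against V2 and V3 (0.0956%). Of the 11 chromosome 2 DEGs of BMDMs 9 could be tested in RPE, 6 had the same sign and 3 were DEGs: AA467197 (log2 fold change -2.38, adjusted p = 0.0455), Gchfr (2.43, 0.00426) and Exd1 (1.33, 0.000429). Of the 15 on other chromosomes 13 could be tested and 6 were DEGs of the same sign: Eif3j2 (3.16), Gm3650 (3.81), Pcna-ps2 (3.41), G530011O06Rik (2.15), Gm15247 (3.64) and Gm47283 (4.89). The RPE count depended on which V1 and B6 WT libraries entered the fit: with replicates 1 to 3 of each it was 496 (2.66%), and with V1 replicates 4 to 6 it was 14 (0.0737%), which kept 1 of the 3 chromosome 2 calls. It was 36 without V3 replicate 1.

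The difference of the V1 contrast between BMDMs and RPE was tested directly, with 1 interaction term in edgeR over the reads of all 30 libraries. It had an adjusted p under 0.05 in 15 of 20873 genes (0.0719%), 2 of them chromosome 2 DEGs of BMDMs and 4 DEGs on other chromosomes. Gpr176 was higher in V1 BMDMs, whereas in RPE it was at 74.8 to 202 (median 88.4) in V1, 108 to 121 in V2 and 119 to 289 in V3 (difference of the contrasts 1.93 on the log2 scale, adjusted p = 0.0119). Lgr4 was likewise higher in V1 in BMDMs and at 1986 to 3308 in V1 RPE against 3154 to 3687 in V2 and 2580.2 to 3421 in V3 (difference 1.53, adjusted p = 0.00629). In both genes the RPE ranges of the lines overlapped.

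Tyro3 went in opposite directions in the tissues. In RPE it was at 986 to 1871 in V1 (median 1468), 2628 to 3851 in V2 and 2145 to 3577 in V3, with every V1 library below all others (log2 fold change -1.12, adjusted p = 0.007, limma), whereas in BMDMs the few reads were more in V1. The difference of the contrasts was 2.39 (adjusted p = 0.00205, edgeR). Thbs1, lower in V1 BMDMs, was at 11280.5 to 24787 in V1 RPE and 10006 to 29646 in V3, with V2 between 13182 and 19825, and its difference of -1.67 did not pass (adjusted p = 0.0578). Without BMDM V1 replicate 3, V1 replicate 1 or RPE V3 replicate 1 the count of 15 genes became 7, 9 and 35. It became 1112 with V1 and B6 WT replicates 1 to 3 of RPE only, and 792 with a replicate block.

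Of the other chromosome 2 genes that the study names in its text, Duoxa2, Pla2g4e, Tgm3 and Gm13999 had at most 3.03 normalized counts in any BMDM library and Itpka at most 12.3, and were not tested. Lcn2 (log2 fold change 0.07, adjusted p = 0.907), Cst7 (0.11, 0.883) and Pmepa1 (-0.48, 0.826) did not pass in the BMDM contrast of V1 against V2 and V3. The study made other comparisons. It listed Lcn2 and Cst7 as differing in RPE, and by qPCR it reported Pmepa1 below B6 WT in V1 BMDMs but not in V2 or V3. In the RPE contrast of V1 against V2 and V3 used here, Lcn2 (log2 fold change 0.89, adjusted p = 0.592, limma) and Cst7 (0.93, 0.539) did not pass. Pmepa1, a feedback inhibitor of TGF-beta signalling, was at 31.7, 36.99 and 28.1 in V1, 16.98, 39.3 and 405 in V2, 29.5, 36.2 and 28.1 in V3 and 76.5, 106 and 52.8 in B6 WT. V2 replicate 3 stood far above the rest, and the V1 libraries lay below those of B6 WT and overlapped those of V3.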

How the data were processed

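RNA-seq of polyadenylated RNA from 12 BMDM and 18 RPE libraries was used. Per the study's methods, the authors trimmed 150-base paired-end reads with btrim, aligned them with STAR to GRCm38 (mm10) and normalized gene counts with DESeq2. Versions are not given in the sources used here. The deposited values form a signal, gene counts divided by 1 size factor per library. Dividing by the value of 1 read gave whole reads for 100% of values (tolerance 0.001), and these served edgeR and DESeq2. Libraries of 1 group, labelled biological replicates, differed by more than counting noise.

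Genes with a mean of at least 10 over the 12 BMDM libraries were fitted with limma 3.58.1 (R 4.3.3, eBayes with trend) on log2(normalized count + 1), with 4 genotypes in 1 model and the contrast of V1 against the mean of V2 and V3. Fold changes on this scale understate changes of low genes. Adjusted p values are Benjamini-Hochberg values over all genes tested. edgeR 4.0.16 tested the difference between tissues and, like DESeq2 1.42.0, served as an alternative. Single values were tested by exact permutation of 3 against 6 libraries, which takes V2 and V3 as 1 group. The adjustment over 6 such tests includes sums of genes chosen on the same libraries, which can lower the adjusted values. Intervals cover counting error only. BLAST 2.17.0 searched GENCODE M21 for near-identical transcripts, for which a match had to span 300 nt and 50% of a transcript with 97% identity or more. In that annotation, 55480 of 55573 gene IDs matched. All value columns had a sample. Scripts were tested on simulated data.

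The text names Mertk, Tyro3 and Axl, all DEGs, the 10 genes on chromosome 2 and the 10 elsewhere with the largest change among other genes with an adjusted p under 0.05, the list members that passed, and the chromosome 2 genes named by the study, plus genes picked after their values were seen (Pcna, Spg11, Slc28a2 and Gm21887 as copies). Camk2b and Rtn1, named by this rule, are given in the closing section. The members and gene lists were chosen with earlier results of these data known. Alternatives covered the pseudocount, the filter, the samples fitted, V2 and V3 as 1 group, quantile normalization, array weights, a replicate block, edgeR, DESeq2 and leaving out each library.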

Additional observations from a re-analysis of the deposited data

Results flagged for a closer look

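The V1 contrast differed between BMDMs and RPE by the edgeR interaction test (adjusted p under 0.05) in 10 genes named in the report. The difference, BMDM minus RPE on the log2 scale, was 1.93 for Gpr176, 1.53 for Lgr4, 0.85 for Haus2, 1.43 for Mid1, 1.75 for Cpne8, 1.30 for Bmpr1a and 2.39 for Tyro3. It was -3.66 for Fosb, -1.12 for Ier3 and -1.87 for Gm46620. Under 35 alternatives the call was made in 35 for Lgr4 and Gm46620, 33 for Gpr176, 31 for Fosb and Mid1 and 29 for Cpne8. The alternatives were followed for DEGs only, so the calls of Haus2, Bmpr1a, Tyro3 and Ier3 were not checked in this way.

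In groups of 6 RPE libraries, 1 library stood apart from the other 5 by Dixon's test in 7 of 56 pairs of a gene and a group checked. Chance gives about 1 in 20 only for normally distributed values. Counts near 0, as for F830045P16Rik and Gm42031, are not so distributed, and no excess can be read from the 7. Axl was at 1444 in V1 replicate 3, Gpr176 at 202 in V1 replicate 5, Gm15247 at 39.8 in V1 replicate 4 and Gm42031 at 4.50 in V1 replicate 6. In B6 WT, Fosb was at 91.4 in replicate 2, Lgr4 at 3775 in replicate 1 and F830045P16Rik at 1.87 in replicate 1, where the other 5 libraries were listed at 0. The BMDM groups, of 3 libraries each, were not tested in this way.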

How the results depend on the processing

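The count of DEGs was 25 with a pseudocount of 5, 36 without a filter, 24 with the 9 knockout libraries only, 19 with V2 and V3 as 1 group, 30 with quantile normalization, 32 with array weights, 30 by edgeR and 32 by DESeq2, and each of these fits called all 11 chromosome 2 DEGs. Fitted as 1 group, V2 and V3 left 70 genes with an adjusted p under 0.05, 8 DEGs outside chromosome 2 and 3 immediate early genes, and array weights gave 209 genes with an adjusted p under 0.05. Of 181 counts under alternatives, 167 stayed within 1.5 times of the reported count. Of 545 values of the 26 DEGs under alternatives none changed sign and 518 kept an adjusted p under 0.05. Past both thresholds under every alternative were 16 DEGs, 8 of them on chromosome 2.

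Leaving out 1 library gave 22 to 31 DEGs, 74 to 266 genes with an adjusted p under 0.05, 8 to 13 DEGs on chromosome 2 and 14 to 20 elsewhere, 15 to 21 DEGs against V2, 35 to 60 against V3, 13 to 36 in RPE, 7 to 35 genes that differed between tissues and 4 to 8 immediate early genes. With replicates 1 to 3 of V1 and B6 WT only, RPE had 496 DEGs and 1112 genes differed between tissues. The causes were not tested.

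The replicate numbers did not pair the BMDM libraries (correlations of deviations from group means of -0.303 to 0.363). With a replicate block there were 25 DEGs and 116 genes with an adjusted p under 0.05 in BMDMs, 558 DEGs in RPE and 792 genes that differed between tissues, and Cpne8 lost its call. With 3 libraries a group, low genes such as Lgr4, Plcb1 and Exd1 lost their calls when 1 V1 library was left out, at a similar fold.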

Other observations

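Camk2b, a subunit of a calcium and calmodulin-dependent kinase, was at 43.5, 72.99 and 42.7 normalized counts in V1, 80.1, 69.6 and 92.1 in V2, 137, 147 and 161 in V3 and 22.2, 30.97 and 30.3 in B6 WT BMDMs (log2 fold change -1.07 with an SE of 0.19, adjusted p = 0.0098, limma). All 9 knockout libraries were above the 3 of B6 WT, and V1 overlapped V2. Rtn1, a reticulon of the endoplasmic reticulum, was at 48.1, 44.99 and 33.7 in V1, 83.7, 69.6 and 35.1 in V2, 142, 141 and 155 in V3 and 69.9, 67.7 and 88.9 in B6 WT (log2 fold change -1.13 with an SE of 0.23, adjusted p = 0.0249), with V3 above all others. Gm49980, a long non-coding RNA, was at 211, 247 and 249.7 in V1, 611, 288 and 528 in V2, 661, 637 and 708 in V3 and 183, 169.5 and 202 in B6 WT (log2 fold change -1.22 with an SE of 0.17, adjusted p = 0.00158), and V2 replicate 2 was the V2 library nearest to V1, as for Gm42031 and Gm46620.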
